A study of Mus musculus with 12 samples.

Results

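Transcripts of the heat shock response and the unfolded protein response were followed in the hippocampus of naturally aged male C57BL/6J mice given pyrroloquinoline quinone (PQQ), a redox-active quinone. The genes, taken by name, were Hspa1a, Hspa1b, Hspb1, Dnajb1, Hsph1, Hspa5, Xbp1, Ddit3, Atf4 and Atf3, which are 10 of the 27833 genes in the expression table. All 10 had a mean above the minimum of 0.5 FPKM (read fragments relative to gene length and library size) and were tested. The mice were wild type and 20 months old, and were dosed by gavage over 14 days. The CON group (n = 3 libraries) received normal saline, the PQQ-L group (n = 5) 5 mg/kg/day PQQ and the PQQ-H group (n = 4) 10 mg/kg/day. No library came from young mice, so all levels are those of aged tissue. The question addressed by each comparison was whether PQQ was accompanied by a change in these stress transcripts at either dose.

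The heat shock response is the cytosolic arm of protein quality control. Heat shock factor HSF1, freed from chaperones when proteins misfold, binds heat shock elements and drives genes for chaperones such as the inducible HSP70 proteins, their HSP40 and HSP110 partners and the small HSPs. The unfolded protein response is the corresponding program of the endoplasmic reticulum (ER). Its sensors are IRE1, which splices Xbp1 mRNA, ATF6, which induces ER chaperones such as BiP, and PERK, which phosphorylates eIF2alpha and so favors translation of ATF4, a factor that acts upstream of CHOP and, with other inputs, of ATF3. FPKM at the level of whole genes shows neither the splicing of Xbp1 nor the translation of Atf4.

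Promoter sequence is shown for the 5 genes whose window held the letters of a textbook element of these programs. Dnajb1, Xbp1, Ddit3, Atf4 and Atf3 had no match in theirs. The 250 bases upstream of each start were searched on both strands in RefSeq windows of build GRCm38.p6, where all 10 genes had an entry. The heat shock element was searched as GAANNTTC or TTCNNGAA, which 12.8% of 32851 windows held, among them those of Hspa1a, Hspa1b, Hspb1 and Hsph1. The ER stress response element was searched as CCAAT, 9 bases of any kind and CCACG, which 0.113% of the windows held, among them that of Hspa5. The 150 bases before each start are given 5′ to 3′ on the strand of the gene, with the elements in capitals. A match is a match of letters and was not tested for binding.
Hspa1a, chr17:34972157-34972306, minus strand: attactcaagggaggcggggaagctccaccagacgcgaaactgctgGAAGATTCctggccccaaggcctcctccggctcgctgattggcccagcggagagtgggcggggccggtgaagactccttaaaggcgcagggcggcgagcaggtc
Hspa1b, chr17:34959239-34959388, minus strand: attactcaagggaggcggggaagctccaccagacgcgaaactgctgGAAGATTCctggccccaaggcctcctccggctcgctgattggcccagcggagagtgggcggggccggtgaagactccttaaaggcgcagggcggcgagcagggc
Hspb1, chr5:135887769-135887918, plus strand: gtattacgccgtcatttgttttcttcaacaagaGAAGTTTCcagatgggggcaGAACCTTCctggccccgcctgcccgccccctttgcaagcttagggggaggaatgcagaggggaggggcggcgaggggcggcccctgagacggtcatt
Hsph1, chr5:149636337-149636486, minus strand: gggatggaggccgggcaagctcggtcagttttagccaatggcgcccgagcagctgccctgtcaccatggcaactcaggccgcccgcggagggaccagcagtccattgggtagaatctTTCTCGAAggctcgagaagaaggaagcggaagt
Hspa5, chr2:34771940-34772089, plus strand: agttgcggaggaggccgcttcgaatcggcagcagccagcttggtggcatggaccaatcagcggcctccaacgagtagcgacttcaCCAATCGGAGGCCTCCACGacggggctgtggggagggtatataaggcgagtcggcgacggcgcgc
The element began 104 bases before the start in both Hspa1a and Hspa1b. In Hspb1 one began at 117 bases and another at 97, in Hsph1 it began at 33 bases and in Hspa5 at 65. The Hspa1a and Hspa1b sequences differ at 1 of the 150 positions.

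The libraries held 29654553 to 38179496 reads on genes. Tissue content differed between them. The libraries PQQ-H 1, PQQ-H 2, CON 1 and CON 3 had 1345 to 3381 FPKM summed over 11 striatal neuron markers, led by Ppp1r1b, against 37.6 to 180 FPKM in the other 8. Over 12 hippocampal neuron markers the same 4 had 58.5 to 183 FPKM and the other 8 had 211 to 652 FPKM, and no marker of either list was at 0 in any library. Choroid plexus markers (20 genes, led by Ttr) summed to 1816 to 6020 FPKM in CON, 109 to 208 FPKM in PQQ-L and 83.9 to 103 FPKM in PQQ-H. In bulk tissue, fewer cells of a type and less RNA per cell cannot be told apart.

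None of the 10 genes was a differentially expressed gene (DEG) at either dose. A DEG had to pass a |log2FC| of 1 and, with limma on log2(FPKM + 0.1), a p below 0.05 after Benjamini-Hochberg adjustment. In PQQ-L vs. CON 0 of 10 were called, where 0.471% of the 13796 genes tested were called lower and 0% higher. In PQQ-H vs. CON, 0 of 10 were called, beside 0.819% of all genes called lower and 0% higher. In PQQ-H vs. PQQ-L, 0 of 10 were called, beside 0% of all genes in either direction. By the adjusted p alone 0 of 10 passed in each comparison, beside 0.587% of all genes lower and 0% higher at the low dose, and 1.08% lower and 0.0145% higher at the high dose. At an unadjusted p below 0.05 the count was 1 in each comparison with CON, which was Hspb1 with a lower level, and 0 between the doses. That threshold took 11.6% of all genes as lower and 8.92% as higher in PQQ-L vs. CON. It took 7.88% and 1.85% at the high dose, and 4.6% and 3.55% in PQQ-H vs. PQQ-L. Voom on the recovered read counts gave the same numbers of 0 calls and of 1, 1 and 0 genes at the unadjusted threshold. The median log2FC against CON of the 10 genes was -0.04 at the low dose and -0.10 at the high dose, beside -0.03 in both over all genes.

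**Figure D1:**
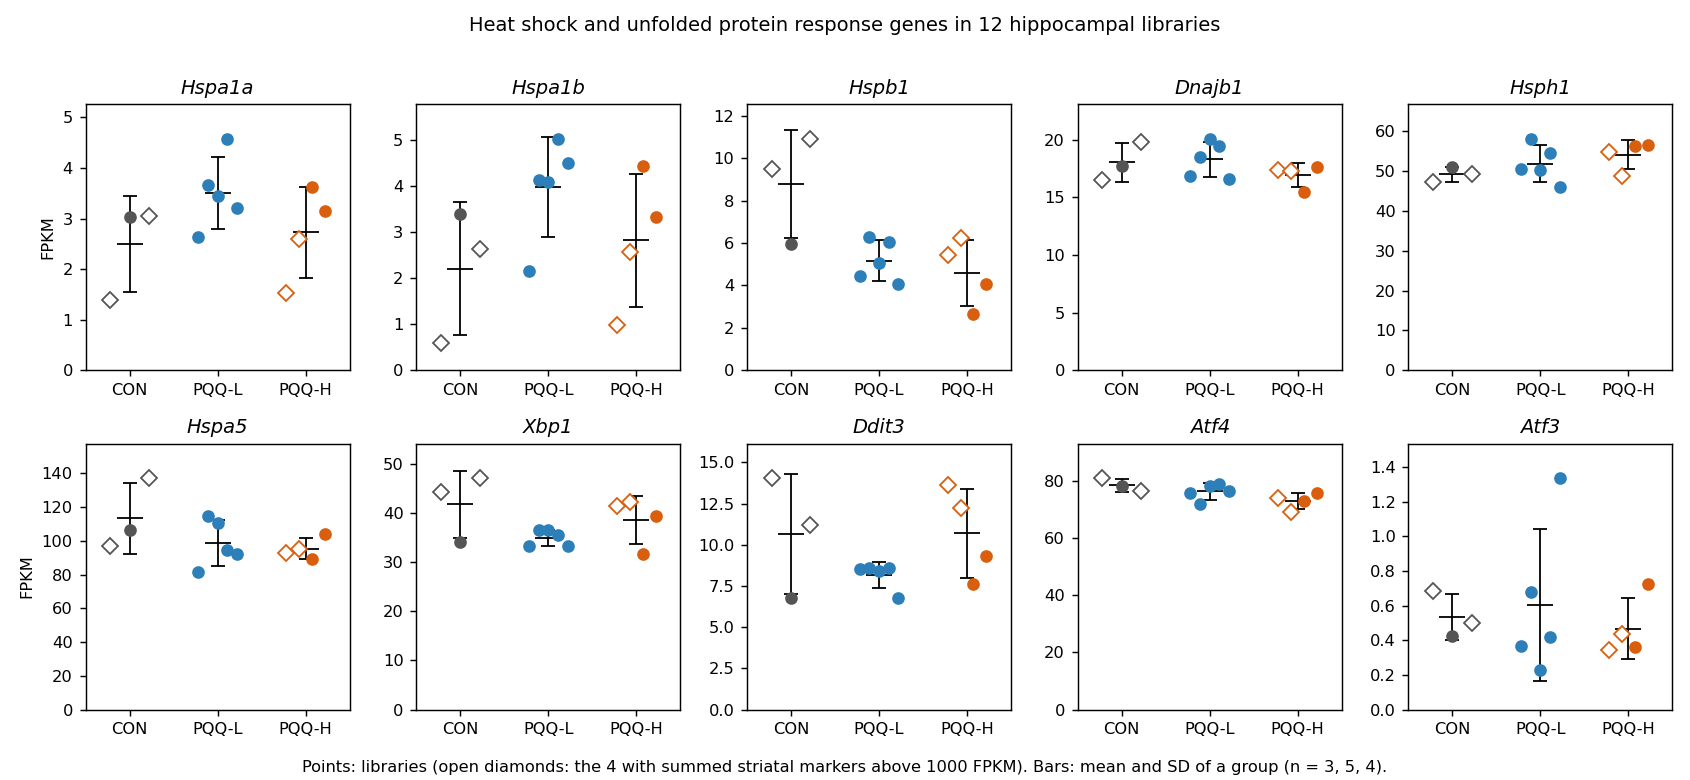
FPKM of the 10 genes (y axes, from 0) in each library by group, with the mean and SD of each group and the 4 libraries high in striatal markers as open diamonds. Hspb1 was at 9.51 and 10.9 FPKM in CON 1 and CON 3 and at 2.64 to 6.29 FPKM in the 10 other libraries, while the 3 groups overlapped for most genes.

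The levels spanned a wide range. Ordered by mean FPKM over the 12 libraries, the genes ran Hspa5, Atf4, Hsph1, Xbp1, Dnajb1, Ddit3, Hspb1, Hspa1b, Hspa1a and Atf3. In each of the 12 libraries Hspa5 was above Atf4, Atf4 above Hsph1, Hsph1 above Xbp1, Xbp1 above Dnajb1, Dnajb1 above Ddit3 and Ddit3 above Hspb1. The ranges over libraries overlapped between Hsph1 and Xbp1 and between Ddit3 and Hspb1. Hspb1 was above Hspa1b in 10 of 12 libraries. Hspa1b was above Hspa1a in 7 of 12 libraries, so these neighbors were not separated. The steadiest gene was Atf4, with a coefficient of variation of 4.39% over libraries, and 0.971% of all genes had a lower one. Hsph1 (7.57%) and Dnajb1 (8.01%) also lay below the median of all genes, 16.3%. Hspa1a (29.5%), Hspb1 (39.3%), Hspa1b (44.6%) and Atf3 (54.1%) varied most.

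Hspa1a and Hspa1b encode the stress-inducible HSP70 proteins, which hold unfolded clients and are scarce in unstressed cells. Hspa1a was at 1.40, 3.04 and 3.04 FPKM in CON 1 to 3, at 2.63, 3.66, 3.44, 4.57 and 3.21 FPKM in PQQ-L 1 to 5 and at 1.52, 2.60, 3.62 and 3.16 FPKM in PQQ-H 1 to 4. Hspa1b was at 0.59, 3.40 and 2.64 FPKM in CON, at 2.15, 4.13, 4.08, 5.02 and 4.50 FPKM in PQQ-L and at 0.98, 2.57, 4.43 and 3.32 FPKM in PQQ-H. Both genes were lowest in CON 1, next lowest in PQQ-H 1 and highest in PQQ-L 4, and the groups overlapped. These are low levels, resting on 139 to 450 reads per library for Hspa1a and 59 to 496 for Hspa1b.

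For Hspa1a the log2FC in PQQ-L vs. CON was 0.53 (SE 0.31, 95% interval -0.14 to 1.20), with a limma adjusted p of 0.283. For Hspa1b it was 1.07 (SE 0.55, interval -0.14 to 2.27), with a limma adjusted p of 0.261 and an exact permutation p of 0.0893 (two-sided). This value passed the fold threshold but not the test, and the intervals hold both no difference and a rise of more than the fold threshold. Without CON 1, the library with the most striatal and the least hippocampal marker RNA, the Hspa1b value was 0.34 and the Hspa1a value 0.18. Without CON 2 they were 1.51 and 0.71 (limma adjusted p 0.0794 and 0.138), and without CON 3 1.34 and 0.71. In PQQ-H vs. CON the log2FC was 0.14 for Hspa1a (interval -0.56 to 0.84) and 0.46 for Hspa1b (interval -0.80 to 1.73). Without CON 1 these were -0.22 and -0.26. Without CON 2 they were 0.32 and 0.91, and without CON 3 0.32 and 0.73. The genes are near-identical copies, and 296 of 300 of their promoter bases are the same. How reads that match both genes were counted is not given, so each level may lack or mix such reads. The ratio of Hspa1b to Hspa1a FPKM went from 0.42 in CON 1 to 1.40 in PQQ-L 5.

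Dnajb1 encodes an HSP40 co-chaperone that delivers clients to HSP70, and Hsph1 an HSP110 protein that exchanges the nucleotide on HSP70. Dnajb1 was at 16.5, 17.7 and 19.8 FPKM in CON, at 16.9, 18.5, 20.1, 19.4 and 16.6 FPKM in PQQ-L and at 17.4, 17.3, 15.4 and 17.6 FPKM in PQQ-H. Hsph1 was at 47.4, 51.1 and 49.2 FPKM in CON, at 50.6, 58.1, 50.3, 54.6 and 46.1 FPKM in PQQ-L and at 54.8, 48.8, 56.3 and 56.6 FPKM in PQQ-H. The groups overlapped for both genes. The intervals of their differences were narrow. For Dnajb1 the log2FC against CON was 0.02 (interval -0.17 to 0.21) at the low dose and -0.09 (interval -0.29 to 0.11) at the high dose. For Hsph1 it was 0.07 (interval -0.11 to 0.25) and 0.13 (interval -0.06 to 0.32). The limma adjusted p was 0.565 or more in these comparisons.

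Hspb1 encodes HSP27, a small HSP that holds unfolded proteins without ATP. Its levels were 9.51, 5.94 and 10.9 FPKM in CON, 4.43, 6.29, 5.07, 6.04 and 4.06 FPKM in PQQ-L and 5.42, 6.22, 2.64 and 4.08 FPKM in PQQ-H. CON 1 and CON 3 were above all 9 PQQ libraries, while CON 2 lay among them. The log2FC was -0.73 (SE 0.28, interval -1.33 to -0.12) in PQQ-L vs. CON, with a limma p of 0.0224, an adjusted p of 0.229 and an exact permutation p of 0.0536. In PQQ-H vs. CON it was -0.95 (SE 0.29, interval -1.58 to -0.32), with a limma p of 0.00688, an adjusted p of 0.226 and an exact permutation p of 0.0857. The smallest exact p is 0.0179 in the first comparison and 0.0286 in the second.

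The Hspb1 difference moved with 2 of the CON libraries. CON 1 and CON 3 carried striatal marker RNA and the most choroid plexus marker RNA (4103 and 6020 FPKM), and markers of other cells also moved with the CON group. Thalamic neuron markers summed to 170, 96.9 and 22.1 FPKM in CON 1 to 3 and to at most 28.9 FPKM in the PQQ libraries, and 9 of 9 tested were lower in PQQ-L and 8 of 9 in PQQ-H at an unadjusted p below 0.05. Of the ependyma markers 4 of 8 and 8 of 8 were lower, and of the meningeal fibroblast markers 3 of 9 and 5 of 9. Their part in the Hspb1 value was not tested. With CON 2 as the only control, assumed to vary like the other libraries, the log2FC was -0.21 at the low dose and -0.43 at the high dose, or -0.83 at the high dose (adjusted p 0.430) with PQQ-H 1 and PQQ-H 2 left out too. Without CON 2 it was -0.98 in PQQ-L, with a limma adjusted p of 0.0381. In that fit 6.28% of all genes passed both thresholds, and 21.4% were lower at an unadjusted p below 0.05. PQQ-H 1 and PQQ-H 2, with striatal RNA and at most 103 FPKM of choroid plexus markers, had 5.42 and 6.22 FPKM of Hspb1. These values lay within the range of the PQQ-L group and above PQQ-H 3 and PQQ-H 4, at 2.64 and 4.08 FPKM. The Hspb1 median was 7.86 FPKM in the 4 libraries with striatal RNA and 4.75 FPKM in the other 8. The part of striatal RNA in these values was not tested. HSPB8 and BAG3 act with each other in chaperone-assisted autophagy. Hspb8 was at 15.1, 11.3 and 17.6 FPKM in CON, 7.01 to 9.46 FPKM in PQQ-L and 6.36 to 11.6 FPKM in PQQ-H, with a log2FC of -0.76 (limma adjusted p 0.137) and -0.91 (adjusted p 0.0762). The Bag3 log2FC was -0.35 and -0.31 (adjusted p 0.221 and 0.459).

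**Figure D2:**
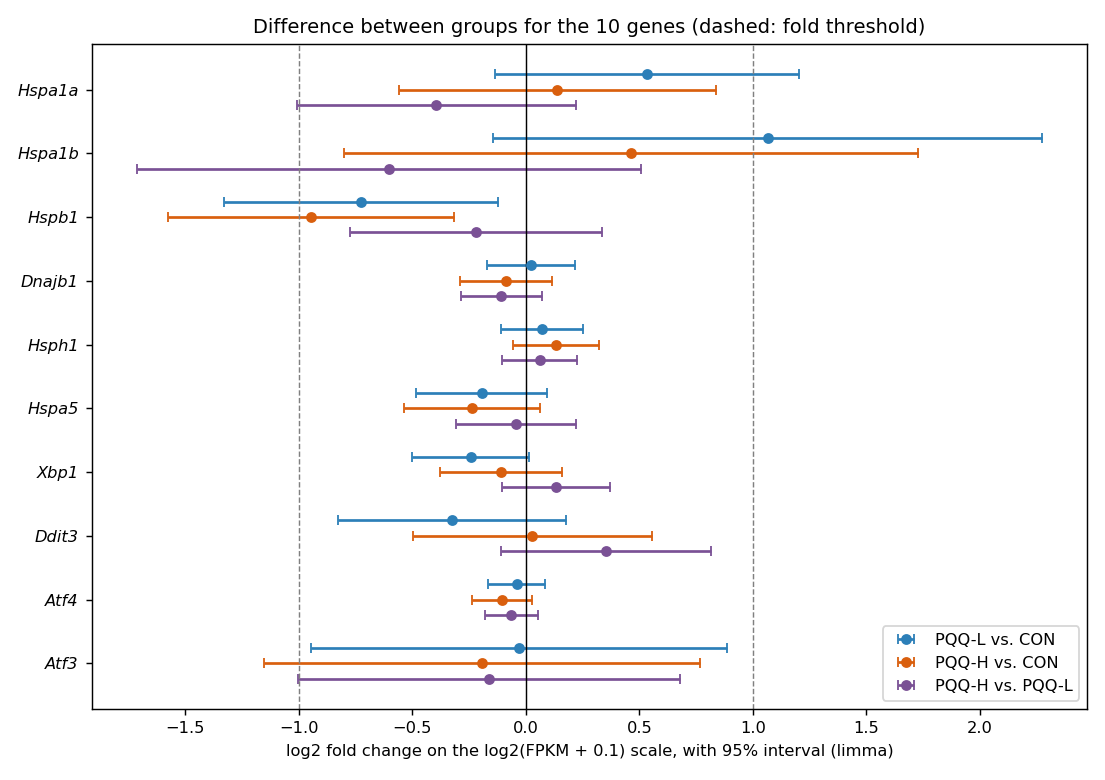
Log2 fold change (x axis) of each of the 10 genes in the 3 comparisons, with limma's 95% interval as bars and the fold threshold of 1 as dashed lines. Only the Hspb1 intervals against CON exclude 0, and those of Dnajb1, Hsph1 and Atf4 are the narrowest.

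Hspa5 encodes BiP, the HSP70 of the ER lumen and the standard readout of the unfolded protein response. It was the most abundant of the genes, at 96.7, 106 and 137 FPKM in CON, at 81.6, 115, 110, 94.8 and 92.3 FPKM in PQQ-L and at 92.6, 95.3, 89.4 and 104 FPKM in PQQ-H. CON 3 stood above every other library and the remaining ones overlapped. Against CON the log2FC was -0.19 (SE 0.13, interval -0.48 to 0.09, limma adjusted p 0.342) at the low dose. It was -0.24 (SE 0.14, interval -0.54 to 0.06, adjusted p 0.639) at the high dose. Without CON 3 the values were -0.05 and -0.09. Without CON 1 they were -0.30 and -0.34 (limma adjusted p 0.807 and 0.598), and without CON 2 -0.23 and -0.27. CON 3 also had the highest choroid plexus sum, from a secretory epithelium, and its part in the Hspa5 value was not tested.

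Other ER genes are listed beside Hspa5. Of 31 genes for ER chaperones and ER-associated degradation, 30 were tested. None passed at an adjusted p below 0.05 with limma in either comparison with CON. At an unadjusted p below 0.05, 11 were lower and 1 higher in PQQ-L, against 11.6% and 8.92% of all genes. In PQQ-H, 5 were lower and 0 higher, against 7.88% and 1.85%. The log2FC was below 0 for 22 of 30 in PQQ-L, with a median of -0.16, and for 24 of 30 in PQQ-H, with a median of -0.11. These scalings also moved the median of all genes. On the TPM scale 16 of 30 were below 0 in PQQ-L (median -0.05, beside 0.08 over all genes). In PQQ-H 24 of 30 were (median -0.09, beside -0.0035). With median-of-ratios factors 20 of 30 were below 0 in PQQ-L (median -0.12, beside 0.01). In PQQ-H 20 of 30 were (median -0.05, beside 0.04). Without the 2 CON libraries with high striatal markers, CON 2 was the only control. The median was then -0.10 in PQQ-L and -0.13 in PQQ-H, beside -0.03 and -0.06 over all genes. Without CON 3 alone, 3 genes were lower at an unadjusted p below 0.05 in PQQ-L (median -0.075), against 7.27% of all genes. In PQQ-H 2 were lower (median -0.060), against 6.04%. Without CON 2, 12 of the 30 passed the adjusted p alone in PQQ-L. The 6.28% of all genes called in that fit passed the fold threshold as well, so the shares are not alike. At an unadjusted p below 0.05, 12 were lower and 4 higher there, against 21.4% and 21.8% of all genes. In PQQ-H 9 were lower, against 11.1%.

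Among these, the lumenal HSP90 gene Hsp90b1 had -0.23 at the low dose and -0.25 at the high dose (limma adjusted p 0.219 and 0.324). Calr, a lectin chaperone of glycoproteins, had -0.17 and -0.14, and its membrane-bound relative Canx had 0.08 and -0.05. The disulfide isomerase gene Pdia4 had -0.19 and -0.29, and Pdia3 had -0.18 and -0.25 (adjusted p 0.219 and 0.160). Herpud1, whose protein serves the degradation complex of the ER membrane, had -0.27 and -0.31. The smallest p in PQQ-L was that of Sil1, the nucleotide exchange factor of BiP, at -0.63 (adjusted p 0.172). Selenos followed, at -0.29. Between the doses the smallest p values were those of Hspa13, Canx and Ero1b, with a log2FC of -0.37, -0.13 and -0.34.

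Xbp1 encodes the transcription factor that IRE1 activates by splicing. Its total level was 44.3, 34.0 and 47.0 FPKM in CON, 33.3, 36.5, 36.4, 35.4 and 33.2 FPKM in PQQ-L and 41.3, 42.1, 31.5 and 39.3 FPKM in PQQ-H. Ddit3 encodes CHOP, a factor that promotes cell death under lasting ER stress. It was at 14.0, 6.79 and 11.2 FPKM in CON, at 8.53, 8.57, 8.39, 8.60 and 6.79 FPKM in PQQ-L and at 13.6, 12.2, 7.63 and 9.30 FPKM in PQQ-H. For both genes, CON and PQQ-H each had high and low libraries, and the PQQ-L libraries lay together at the low end.

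Neither gene differed between groups beyond this spread. For Xbp1 the log2FC against CON was -0.24 (SE 0.12, interval -0.50 to 0.01, limma adjusted p 0.251) at the low dose and -0.11 (interval -0.38 to 0.16) at the high dose. For Ddit3 it was -0.32 (SE 0.23, interval -0.83 to 0.18, adjusted p 0.359) and 0.03 (interval -0.50 to 0.55).

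The high libraries were the 4 with striatal RNA. These 4 also stood apart from the other 8 in summed markers of oligodendrocytes (1780 to 2805 against 972 to 1703 FPKM), microglia (346 to 450 against 238 to 300 FPKM), endothelium (134 to 171 against 102 to 124 FPKM) and neurons in general (2150 to 2612 against 2851 to 3137 FPKM). The part of these cell types in the Ddit3 and Xbp1 values was not tested. Ddit3 was at 11.2 to 14.0 FPKM in these 4 and at 6.79 to 9.30 FPKM in the other 8, and Xbp1 was at 41.3 to 47.0 and 31.5 to 39.3 FPKM. Neither gene's values overlapped between these sets, as was so for 10.7% of all genes with higher values and 14.3% with lower values in the 4 libraries. The set of 4 was formed after the data were seen, from the marker sum. With CON 2 as the only control, the log2FC in PQQ-L vs. CON was 0.04 for Xbp1 and 0.26 for Ddit3, so both signs turned. In PQQ-H vs. CON the same setting moved Ddit3 from 0.03 to 0.61 (limma p 0.0491, adjusted p 0.561) and Xbp1 from -0.11 to 0.17. Without CON 2, by contrast, the limma adjusted p was 0.0354 for Xbp1 (log2FC -0.38) and 0.0495 for Ddit3 (log2FC -0.62). In that fit 6.28% of all genes passed both thresholds, and 21.4% were lower at an unadjusted p below 0.05. Hspa1b went the other way, with 0.59 to 2.64 FPKM in the 4 libraries and 2.15 to 5.02 FPKM in the other 8, a range that overlaps through PQQ-L 1.

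**Figure D3:**
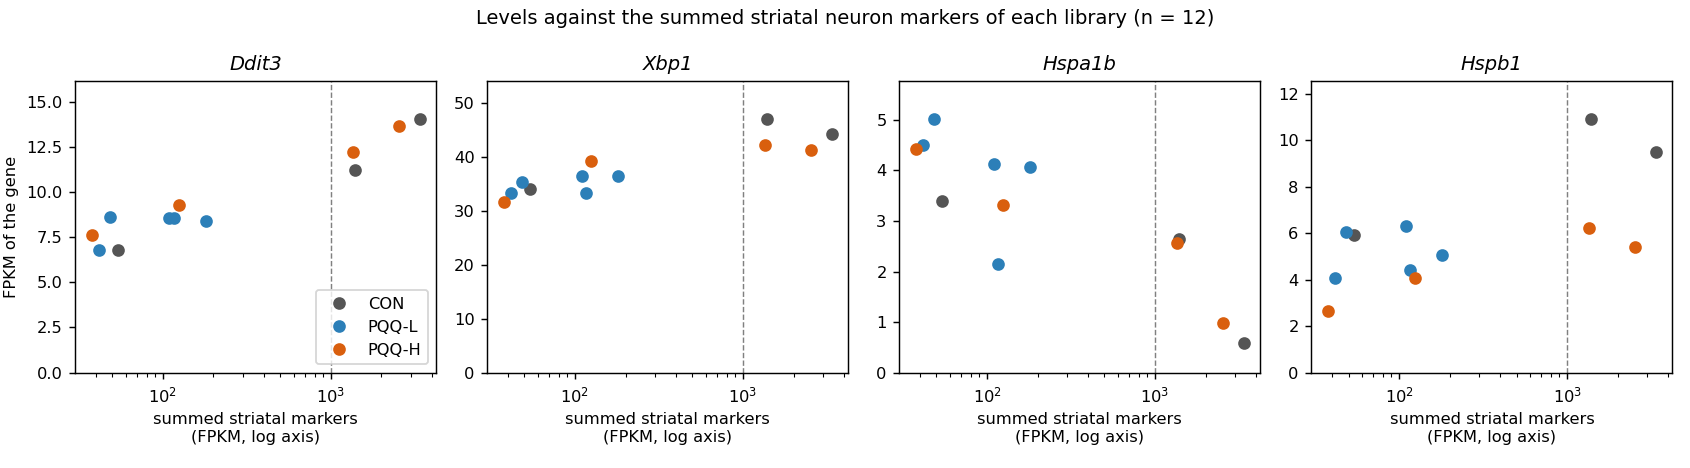
FPKM of Ddit3, Xbp1, Hspa1b and Hspb1 (y axes) against the summed FPKM of 11 striatal neuron markers in each library (log x axis, dashed line at 1000 FPKM). Ddit3 and Xbp1 are higher in the 4 libraries right of the line without overlap, and the highest Hspb1 values are those of the 2 CON libraries there.

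Atf4 encodes the main effector of eIF2alpha phosphorylation and is controlled largely at translation. Its levels were 80.9, 78.0 and 76.5 FPKM in CON, 75.8, 71.8, 78.4, 79.0 and 76.6 FPKM in PQQ-L and 74.0, 69.0, 73.0 and 75.9 FPKM in PQQ-H. In FPKM as deposited, all 4 PQQ-H libraries were below all 3 CON libraries, by little, as was so for 5.72% of the genes tested. The median-of-ratios factors were 1.03 to 1.04 in CON and 0.956 to 1.01 in PQQ-H. With each level divided by its library's factor, PQQ-H 3 (73.0 FPKM, factor 0.956) lay above CON 3 (76.5 FPKM, factor 1.03). The groups therefore overlapped on that scale. The log2FC was -0.10 (SE 0.06, interval -0.24 to 0.03), with a limma adjusted p of 0.638 and an exact permutation p of 0.0571. Over the alternatives other than single libraries left out, it ran from -0.12 to -0.04. In PQQ-L vs. CON the groups overlapped and the log2FC was -0.04 (interval -0.17 to 0.09). No other gene among the 10 had groups without overlap, beside 7.66% of all genes with lower and 2.96% with higher values in PQQ-L vs. CON, 1.36% with higher values in PQQ-H vs. CON, and 3.33% with lower and 1.42% with higher values in PQQ-H vs. PQQ-L.

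Atf3 encodes an immediate early repressor that cell stress induces. It was the lowest of the genes, at 0.68, 0.43 and 0.50 FPKM in CON, at 0.37, 0.68, 0.23, 0.42 and 1.33 FPKM in PQQ-L and at 0.35, 0.44, 0.36 and 0.72 FPKM in PQQ-H. PQQ-L 5 was the highest library and PQQ-L 3 the lowest, with 90 and 16 reads. The log2FC against CON was -0.03 (interval -0.95 to 0.89) at the low dose and -0.19 (interval -1.15 to 0.77) at the high dose. The interval at the high dose reaches past the fold threshold and that at the low dose ends just short of it.

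The doses were also compared with each other. In PQQ-H vs. PQQ-L the log2FC was -0.39 for Hspa1a (interval -1.01 to 0.22), -0.60 for Hspa1b (interval -1.71 to 0.51) and -0.22 for Hspb1 (interval -0.77 to 0.33). It was 0.35 for Ddit3 (interval -0.11 to 0.81) and 0.13 for Xbp1 (interval -0.10 to 0.37). The other 5 genes lay between -0.16 (Atf3) and 0.06 (Hsph1), and the smallest limma adjusted p of the 10 was 0.587. Without the 4 libraries with striatal RNA, the Hspa1a, Hspa1b, Ddit3 and Xbp1 values were -0.03, 0.0023, 0.05 and 0.01, and the Hspb1 value was -0.62 (limma adjusted p 0.375).

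The wider pathways gave 1 gene past the adjusted threshold. Eif2ak2, which encodes PKR, the eIF2alpha kinase that double-stranded RNA activates, was at 1.66, 1.80 and 1.91 FPKM in CON, at 1.01 to 1.53 FPKM in PQQ-L and at 0.93 to 1.11 FPKM in PQQ-H. Every PQQ library was below every CON library, as was so for 7.66% of all genes at the low dose and 5.72% at the high dose. The log2FC in PQQ-H vs. CON was -0.79 (SE 0.15, limma adjusted p 0.0298), which is below the fold threshold. It kept its sign in all 25 alternatives and stayed below an adjusted p of 0.05 in 11 of them, and the adjusted p was 0.0819, 0.0654 and 0.149 without CON 1, CON 2 and CON 3. In PQQ-L vs. CON it was -0.58 (adjusted p 0.120). No other gene of the 15 stress sensors and eIF2alpha kinases passed, while 2 of the 15 did in PQQ-L without CON 2 and 1 without PQQ-L 3. Without CON 2, 3 were higher and 4 lower at an unadjusted p below 0.05, against 21.8% and 21.4% of all genes. Ern1, the gene of IRE1, had a log2FC of 0.16 and -0.19 at the low and the high dose, Eif2ak3, that of PERK, -0.05 and -0.21, and Atf6 0.04 and 0.23. Ppp1r15a, whose product GADD34 returns eIF2alpha to its dephosphorylated state, had -0.39 and -0.34 (adjusted p 0.224 and 0.473). By voom on the recovered reads, 1 of these 15 genes passed in PQQ-H, and 0 genes of the other 4 pathway lists passed in any comparison. Creb3, an ER-bound factor, had -0.21 and -0.16. Between the doses Ern1, Mbtps2 and Eif2ak4 had the smallest p values, with -0.34, -0.37 and -0.24 (adjusted p 0.580 in each).

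Of 37 further heat shock genes, all tested, none passed at an adjusted p below 0.05 with limma. In PQQ-L 5 were higher and 5 lower at an unadjusted p below 0.05, against 8.92% and 11.6% of all genes. In PQQ-H 1 was higher and 2 lower, against 1.85% and 7.88%. Without CON 1 the counts of higher and lower genes were 1 and 1 in PQQ-L, against 1.04% and 5.32% of all genes. In PQQ-H they were 0 and 1, against 0.986% and 6.77%. Without CON 2 the counts were 10 and 8 in PQQ-L, against 21.8% and 21.4% of all genes, and 11 of the 37 passed the adjusted p. In PQQ-H they were 3 and 7, against 9.04% and 11.1%, and 1 passed. Their median log2FC was -0.05 and 0.0040. Hsf1 itself had -0.15 and -0.12, and the related factor gene Hsf2 had 0.47 and 0.24 (adjusted p 0.169 and 0.635). Hspa8, the constitutive HSP70 gene, was at 632 to 793 FPKM over the 12 libraries with a log2FC of -0.07 and -0.0066. The cytosolic HSP90 genes Hsp90aa1 and Hsp90ab1 had 0.24 and 0.02 in PQQ-L and 0.07 and 0.04 in PQQ-H. Fkbp5, an HSP90 co-chaperone that glucocorticoids induce, had 0.24 and 0.42 (adjusted p 0.351 and 0.442). Between the doses the smallest p values were those of Tcp1, Hspa13 and Stub1, at a log2FC of 0.17, -0.37 and 0.14 (adjusted p 0.580 in each).

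ATF4 drives genes of amino acid supply and of feedback on the response. Of 30 listed genes 25 were tested and none passed at an adjusted p below 0.05, while 4 did in PQQ-L without CON 2. In that fit 4 were higher and 6 lower at an unadjusted p below 0.05, against 21.8% and 21.4% of all genes. With all 12 libraries, at an unadjusted p below 0.05, Sesn2 was higher in PQQ-L (log2FC 0.52) and Slc3a2 lower in PQQ-H (log2FC -0.23). Next by p came Gars (-0.18) and Bbc3 (-0.24) at the low dose and Aars (-0.13) and Eif4ebp1 (-0.64) at the high dose. Asns, the asparagine synthetase gene, was at 26.4 to 35.9 FPKM over the 12 libraries, with a log2FC of -0.09 and -0.03. Trib3 was below the minimum level and not tested, at 0.07 to 1.03 FPKM, with 0.63 FPKM or more in the same 4 libraries as high Ddit3 and 0.38 FPKM or less in the other 8. Between the doses Slc7a1, Slc7a5 and Bbc3 had -0.36, -0.24 and 0.30 (adjusted p 0.580). Of 28 immediate early genes, 27 were tested and none passed. In PQQ-L 5 were higher at an unadjusted p below 0.05, led by Dusp6 (log2FC 0.66), Dusp5 (0.99) and Nr4a3 (2.01), and 0 lower, against 8.92% and 11.6% of all genes. Without CON 1 the count of higher genes was 0, against 1.04% of all genes. With CON 2 as the only control the median log2FC was 0.14, beside 0.02 with all 12 libraries. Leaving out PQQ-L 4 or PQQ-L 5 gave 1, against 5.56% and 4.5% of all genes. Leaving out CON 3 or PQQ-L 3 gave 8, against 5.1% and 7.35%. Without CON 2, 7 were higher and 1 lower, against 21.8% and 21.4%, and 4 genes passed the adjusted p. In PQQ-H 1 was higher (Egr3, 1.03) and 3 were lower, among them Ier2 (-0.59) and Klf4 (-0.62), against 1.85% and 7.88%. Between the doses 23 of 27 were below 0, with a median of -0.20 beside -0.02 over all genes. Without PQQ-H 3 the median was -0.09, with 20 of 27 below 0, and without PQQ-H 1 it was -0.32. Without the 4 libraries with striatal RNA it was -0.26, with 23 of 27 below 0. With all 12 libraries 0 were higher and 1 lower between the doses at an unadjusted p below 0.05, against 3.55% and 4.6% of all genes. In PQQ-H vs. PQQ-L, Fos had -1.08, Klf6 -0.24 and Ier2 -0.39 (adjusted p 0.580 in each).

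**Figure D4:**
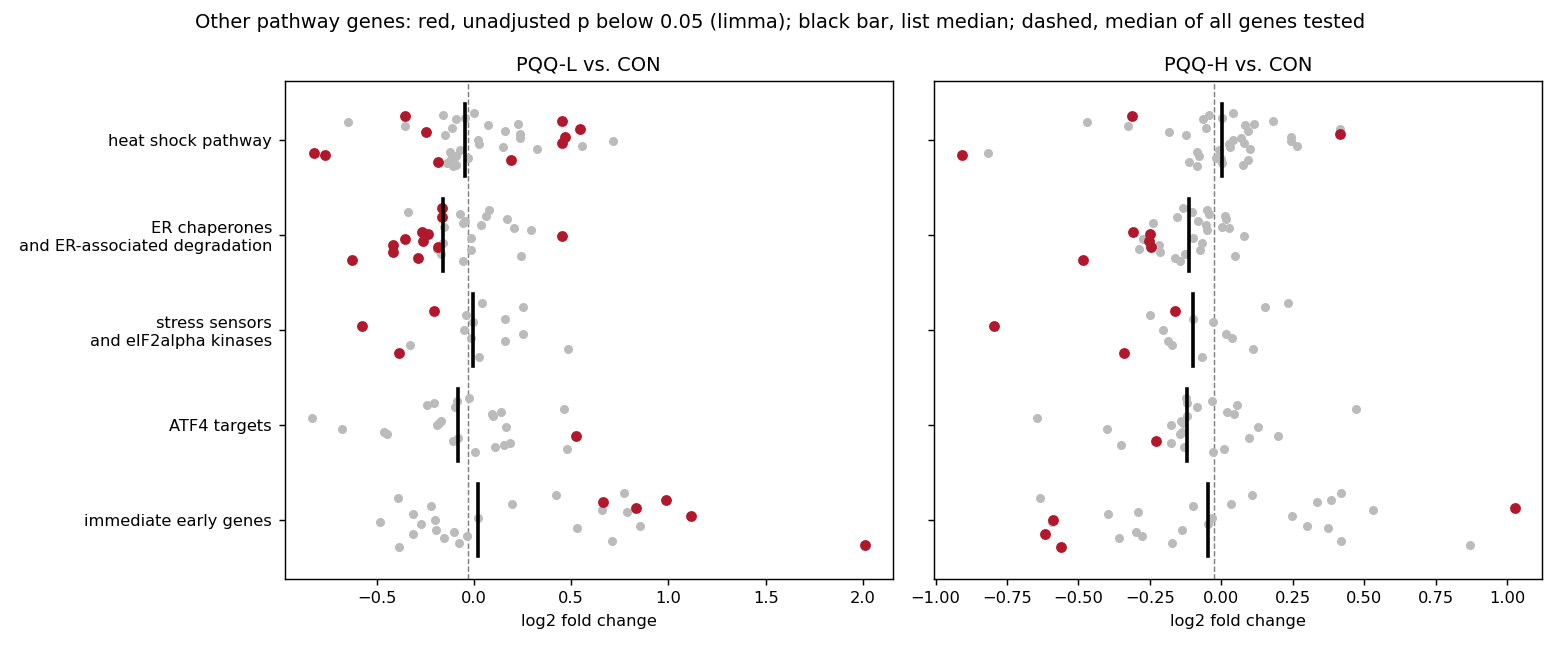
Log2 fold change (x axes) of each tested gene of 5 pathway lists at the low and the high dose against CON, with genes at an unadjusted p below 0.05 in red, the list median as a black bar and the median of all genes as a dashed line. The median of the ER list lies left of the dashed line in both panels, at -0.16 and -0.11 against -0.03.

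Pairs of the 10 genes were compared across libraries. Over all 12 libraries, 5 of the 45 pairs passed a Benjamini-Hochberg adjusted permutation p below 0.05. Since the 4 libraries with striatal RNA form a set of their own, coefficients are given within the other 8, where 0 of 45 pairs passed. By Pearson's r, the pairs at an unadjusted exact permutation p below 0.05 there were 2. By Spearman's rho these were joined by Dnajb1 with Hspa5, Hspa5 with Xbp1 and Xbp1 with Ddit3 (exact p = 0.0458, adjusted 0.412 in each). Hspa1a and Hspa1b had Pearson's r = 0.852 (exact permutation p = 0.00938, adjusted 0.368) and Spearman's rho = 0.810 (exact p = 0.0218, adjusted 0.412), and r = 0.661 without the 2 libraries farthest from the median. Hspb1 and Dnajb1 had r = 0.799 (exact permutation p = 0.0163, adjusted 0.368) and rho = 0.810 (exact p = 0.0218, adjusted 0.412), and r = 0.625 without 2 libraries. Over the 12 libraries Hspa1a and Hspa1b passed, while Hspb1 and Dnajb1 did not (r = 0.520, adjusted permutation p = 0.326). None of the other pairs that passed over 12 libraries had an unadjusted exact p of r below 0.05 within the 8. Xbp1 with Ddit3 had r = 0.671 (exact p = 0.0738, adjusted 0.698) and rho = 0.738 (exact p = 0.0458, adjusted 0.412). Hspb1 with Xbp1 had r = 0.467 (exact p = 0.247) and rho = 0.571 (exact p = 0.151), with r = -0.131 without 2 libraries. Ddit3 had r = -0.203 with Hspa1b (exact p = 0.649) and rho = -0.190 (exact p = 0.665). With Hspa1a it had r = 0.186 (exact p = 0.664) and rho = 0.262 (exact p = 0.536).

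The genes most like each member were ranked by Pearson's r of log2(FPKM + 0.1) over the 12 libraries, among 13795 others, as a description. Hspa5 was followed most closely by Pdpn (r = 0.934) and Pdia4 (r = 0.930, and 0.885 within the 8 libraries), then by Fbxw9. Hspa1a was nearest to Ccdc3, Hspa1b and Tmem151b, and Hspa1b to Septin9, Hspa1a and Adamts8 (r = 0.956 to 0.977). Hspb1 was nearest to Uap1l1, Id1 and Cchcr1 (r = 0.942 to 0.953), which kept 0.904 to 0.941 within the 8 libraries. Xbp1 went with Psenen, Sft2d1 and Map2k2 (0.981 to 0.987) and Ddit3 with Dclk3, Gamt and Cd302 (0.982 to 0.986). Dclk3 ranged from 4.86 to 34.7 FPKM. Dnajb1 was nearest to Cfap119, Cd274 and Msmo1 (0.880 to 0.905), Hsph1 to Pdcd7, Pomk and Med15 (0.841 to 0.854), Atf4 to Snx21, AI854703 and Ubap1 (0.832 to 0.856) and Atf3 to Pcp2, LOC102634078 and Lin9 (0.884 to 0.904). These points share libraries and their tissue content.

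**Figure D5:**
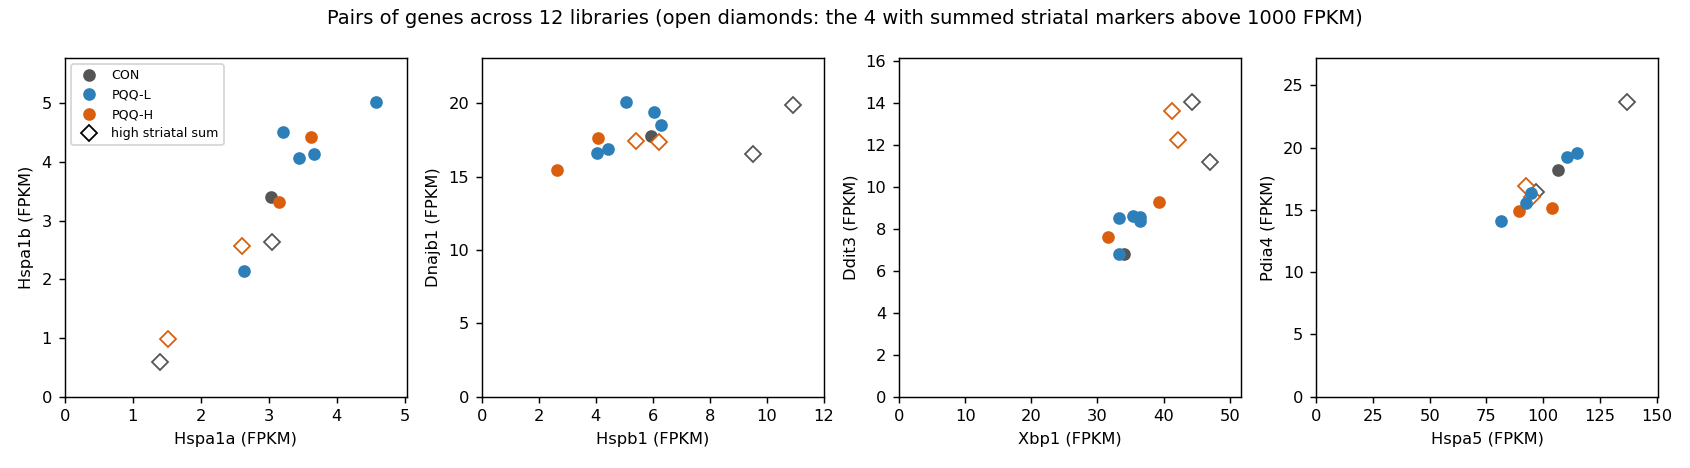
FPKM of Hspa1b against Hspa1a, Dnajb1 against Hspb1, Ddit3 against Xbp1 and Pdia4 against Hspa5 in the 12 libraries, with the 4 libraries with high striatal markers as open diamonds. The diamonds are the lowest points for Hspa1a with Hspa1b in CON 1 and PQQ-H 1 and the highest for Xbp1 with Ddit3, and CON 3 is the highest point for Hspa5 with Pdia4.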

How the data were processed

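Hippocampal RNA-seq libraries of 12 mice were analyzed. The authors sequenced them on an Illumina NovaSeq instrument, filtered reads with fastp, mapped them with HISAT2, counted them with HTSeq-count and deposited FPKM per gene. The submitters' processing notes name build mm39. Strandedness and tool versions are not given in the sources used here. Labels give replicate numbers but do not say what the replicates share, so p-values measure the spread between these libraries.

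The FPKM of 100% of 25563 genes above 0 in at least 2 libraries were whole multiples of 1 read (tolerance 0.02 reads), which gave totals of 29654553 to 38179496. Of 19 pairs of libraries of one group, none were duplicates (lowest chi-square per degree of freedom 17.4). Genes with a mean of at least 0.5 FPKM (13796) were fitted with limma 3.58.1 (R 4.3.3, moderated with trend) on log2(FPKM + 0.1), in one fit of 12 libraries. Fold changes on this scale understate those of low genes. A call needed |log2FC| above 1 and an adjusted p below 0.05. The scripts were tested on simulated data. Single genes were compared by two-sided exact permutation of every split, and pairs by 100000 permutations (exact within 8 libraries), adjusted over 45 pairs, with Python 3.11.15, numpy 2.4.6, scipy 1.17.1 and pandas 2.3.3.

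Sequences are from RefSeq, build GRCm38.p6, which differs from the build of the files. The genes and lists were chosen with earlier results of these data known. All 10 genes are named. Of each pathway list the 3 genes with the smallest p per comparison are named, plus Hsf1, Hspa8, Hsp90aa1, Hsp90ab1, Hsp90b1, Calr, Pdia4, Herpud1, Ern1, Eif2ak3, Atf6, Ppp1r15a, Asns and Trib3. For each of the 10, the 3 genes with the highest r are named. Alternatives were other pseudocounts, filters and scalings, voom on recovered reads, other fits and covariates, and each library left out. Settings without the libraries with high striatal markers, and alternatives for the exact tests, were chosen after seeing the data.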

Additional observations from a re-analysis of the deposited data

Results flagged for a closer look

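In 2 of the 20 groups of 4 or 5 libraries tested (10 genes in PQQ-L and PQQ-H), 1 library lay far from the others by Dixon's criterion, and chance gives about 1 in 20. Dnajb1, the HSP40 gene, was at 15.4 FPKM in PQQ-H 3, below the other 3 PQQ-H libraries. Ddit3, the CHOP gene, was at 6.79 FPKM in PQQ-L 5, below the other 4 PQQ-L libraries. CON 2 had the same Ddit3 level of 6.79 FPKM.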

How the results depend on the processing

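In every alternative run, 0 of the 10 genes passed both thresholds in any comparison. By exact permutation 0 genes passed p below 0.05 in each comparison, and with single libraries left out 0 to 3 in PQQ-L vs. CON (3 without CON 2, 2 without PQQ-L 1) and 0 to 2 in PQQ-H vs. PQQ-L (2 without PQQ-H 3). Correlated pairs numbered 5 over 12 libraries, 3 with median-of-ratios factors, 1 in the 7 libraries whose name opens with L, 0 in the 8 libraries with low striatal markers and 2 to 6 with single libraries left out (2 without CON 1). Of 747 log2FC values under alternatives, 38 changed sign. Another 706 kept their sign and did not pass the adjusted p of 0.05, and 3 kept their sign and passed it. The fold threshold was not part of this count. The share of all genes past the adjusted p alone without CON 2 is not given here. Genes and list counts at that threshold without CON 2 therefore have no like share beside them. Hspa1b in PQQ-L vs. CON went from 1.07 to 0.34 without CON 1 and to 1.51 without CON 2. Hspb1 in PQQ-H vs. CON went from -0.95 to -1.20 without CON 2. With CON 2 as the only control, the log2FC in PQQ-L vs. CON became 0.038 for Xbp1, 0.26 for Ddit3 and 0.22 for Atf3, the same with or without PQQ-H 1 and PQQ-H 2. In PQQ-H vs. CON it became -0.22 for Hspa1a, -0.44 for Hspa1b, 0.17 for Xbp1 and 0.059 for Atf3, and without PQQ-H 1 and PQQ-H 2 as well 0.048 for Xbp1 and 0.23 for Atf3. Without the 4 libraries, PQQ-H vs. PQQ-L became 0.0023 for Hspa1b and 0.00306 for Atf3. In PQQ-L vs. CON, median-of-ratios factors gave 0.00045 for Atf4 and 0.0054 for Atf3, TPM 0.070 and 0.049, and a pseudocount of 1 gave 0.027 for Atf3. TPM gave -0.026 for Hsph1 in PQQ-H vs. PQQ-L. TPM moved the median of all genes from -0.03 to 0.08 in PQQ-L vs. CON, and the median of the heat shock list from -0.05 to 0.07 and of the ATF4 targets from -0.08 to 0.03. In PQQ-H vs. PQQ-L it moved the median of all genes from -0.02 to -0.11. With single libraries left out, the range was -0.040 to 0.092 for Dnajb1 and -0.34 to 0.20 for Atf3 in PQQ-L vs. CON. It was -0.22 to 0.38 for Hspa1a, -0.26 to 0.91 for Hspa1b and -0.26 to 0.25 for Ddit3 in PQQ-H vs. CON. It was -0.39 to 0.016 for Hspb1, -0.11 to 0.014 for Hspa5 and -0.39 to 0.14 for Atf3 in PQQ-H vs. PQQ-L. The cause of these turns was not tested, beyond the libraries each leaves out.

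The correlation of deviations of same-numbered libraries over 10 pairs ran from -0.62 (CON 2 with PQQ-H 2) to 0.72 (CON 1 with PQQ-H 1). CON 1 and PQQ-H 1 both carried striatal RNA, while CON 2 did not and PQQ-H 2 did. Differing tissue content can hide a pairing, so these values cannot show whether replicate numbers pair the libraries. With a replicate block 23, 48 and 0 of all genes were called in the 3 comparisons, against 65, 113 and 0, and 0 of the 10 genes in each. The block turned the sign for Atf3 in PQQ-H vs. PQQ-L (0.14). With the library letter as a covariate 49 and 78 genes were called. Leaving out CON 2 raised the calls in PQQ-L vs. CON to 866, and leaving out CON 1 and CON 3 lowered them to 1. Reads per library were fewest for Atf3 (16 to 90), Hspb1 (84 to 330), Hspa1a (139 to 450) and Hspa1b (59 to 496), against 512 or more for the other 6 genes.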
